A study of Rattus norvegicus with 10 samples.

Results

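The 2 corticosteroid receptor genes Nr3c1 and Nr3c2 and 6 genes known to respond to glucocorticoids, Fkbp5, Sgk1, Tsc22d3, Zbtb16, Klf9 and Errfi1, were followed in the rat hippocampus. They were chosen by name as 8 of the 17168 gene symbols in the deposited table, and all 8 passed the filter on low counts that left 11791 genes to test. RNA was taken from the left hippocampus. The 10 animals were female rats of the TgF344-AD line, which carries mutant human APP and presenilin transgenes under the mouse prion promoter. No animal without the transgenes was included, so every group carries them. The untreated group held 5 animals on ordinary chow, and the RG2833 group held 5 animals fed chow with 750 mg of RG2833 per kg from 5 months of age for 6 months. RG2833 is an inhibitor of HDAC1 and HDAC3, enzymes that remove acetyl groups from histones. Both groups were 11 months old when killed, and were perfused under ketamine and xylazine anaesthesia with buffered saline before dissection. The labels give neither a corticosterone level nor the hour of tissue collection.

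Corticosterone, the main glucocorticoid of the rat, enters the brain and binds both receptors, which share a DNA-binding domain of very similar sequence and can bind the same response elements. The mineralocorticoid receptor (Nr3c2) has the higher affinity and is abundant in hippocampal neurons, whereas the glucocorticoid receptor (Nr3c1) is filled mainly at the daily hormone peak and under stress. Without hormone the glucocorticoid receptor is held in the cytoplasm by an Hsp90 chaperone complex, and with hormone it enters the nucleus and acts on transcription together with coregulators, some of which recruit histone deacetylases.

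Total estimated counts lay between 8764266 and 11311673 per library, and the 8 genes had between 247 and 2397 counts in each. Values below are CPM, counts relative to the library total, after TMM scaling, which centres the bulk of genes at no change. Several properties of the libraries separated or spread the groups. Ribosomal RNA loci took a share of the counts of 2.70% to 5.36% in untreated and 1.13% to 1.96% in RG2833 animals. The summed level of 3 excitatory neuron markers (Slc17a7, Neurod2 and Neurod6, none at 0) spanned 1434 to 2325 CPM without and 2442 to 2876 CPM with RG2833. On the first principal component untreated replicate 4 had a value within the RG2833 range, and untreated replicate 1 held 2428 CPM of 5 choroid plexus markers (Ttr, Kl, Folr1, Aqp1 and Otx2), against at most 42.8 CPM in any other animal. In whole tissue, fewer cells of a type and less RNA per cell cannot be told apart.

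Long-term RG2833 was compared with ordinary chow. Klf9 rose, and it was the only one of the 8 genes past an adjusted p under 0.05 over all tested genes (edgeR quasi-likelihood test, Benjamini-Hochberg adjustment), a threshold that 5.08% of all tested genes passed, 2.41% higher and 2.67% lower in RG2833 animals. Mean levels were also higher in RG2833 animals for Errfi1, Nr3c2, Fkbp5, Nr3c1 and Zbtb16, lower for Tsc22d3, and nearly equal for Sgk1, without passing the test. The median log2 fold change of the 8 genes was 0.18, against -0.00347 over all tested genes. At an unadjusted p under 0.05, 4 of the 8 passed (Klf9, Errfi1, Tsc22d3 and Nr3c2), where 24.5% of all tested genes did. In 0 of the 8 genes were the groups fully separated, which was the case for 7.27% of all tested genes.

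**Figure D1:**
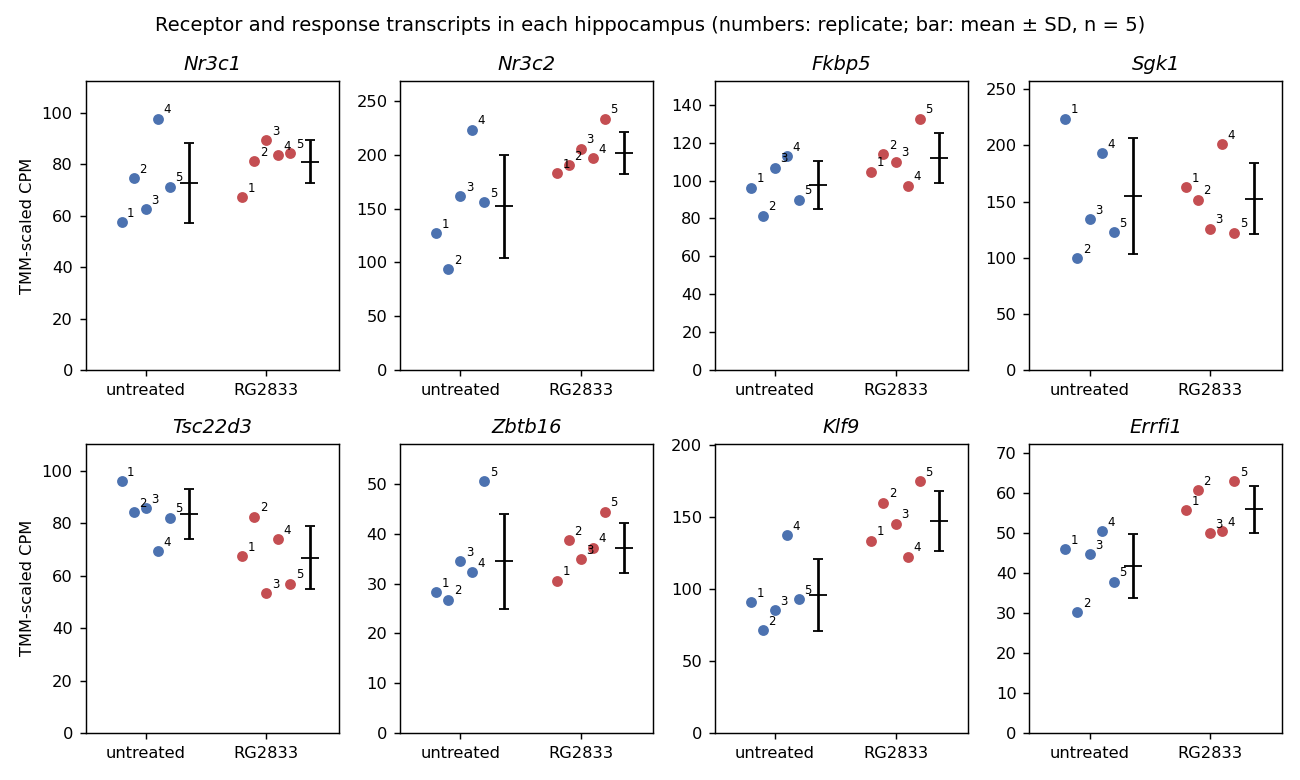
TMM-scaled CPM of the 8 genes in each animal (vertical axes from 0), with 5 untreated animals in blue and 5 RG2833 animals in red; digits are replicate numbers and bars are the mean ± SD (n = 5). Klf9 and Errfi1 are higher in RG2833 animals with overlap only through the highest untreated animal, replicate 4, and Sgk1 overlaps over nearly its whole range.

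The receptors are described first. Nr3c1 was measured at 57.5, 74.5, 62.5, 97.6 and 71.2 CPM in untreated replicates 1 to 5, and at 67.1, 81.2, 89.2, 83.5 and 84.2 CPM in RG2833 replicates 1 to 5. The highest value of all was that of untreated replicate 4, so no RG2833 animal exceeded the untreated range. The means were 72.7 ± 15.5 and 81.0 ± 8.34 CPM (SD, n = 5), or 0.16 ± 0.13 (SE) in log2 fold change (edgeR adjusted p = 0.484). The difference in glucocorticoid receptor transcript was smaller than the spread between untreated animals. It was 0.083 on the log2 scale without untreated replicate 1 and 0.29 without untreated replicate 4 (edgeR adjusted p = 0.0818 for the latter).

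Nr3c2, the mineralocorticoid receptor gene, was at 127, 93.6, 162, 223 and 156 CPM in untreated replicates 1 to 5, and at 183, 190, 206, 197 and 233 CPM in RG2833 replicates 1 to 5. All 5 RG2833 animals lay above the untreated mean, but untreated replicate 4 was higher than 4 of them. The means were 152 ± 47.9 and 202 ± 19.6 CPM (SD, n = 5), and the change of 0.40 ± 0.18 (SE) on the log2 scale did not pass (edgeR adjusted p = 0.185). Leaving out untreated replicate 4 gave 0.58 and brought the gene past the threshold (edgeR adjusted p = 0.0202), in a fit where 13.1% of all tested genes passed. The other 9 fits that left out 1 animal did not bring Nr3c2 past it.

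The balance of the receptors was followed as log2 CPM of Nr3c2 minus log2 CPM of Nr3c1 within each library, a difference that does not compare the amounts of the 2 transcripts. It was 1.14, 0.33, 1.37, 1.19 and 1.13 in untreated replicates 1 to 5 and 1.44, 1.23, 1.204, 1.23 and 1.47 in RG2833 replicates 1 to 5. Untreated replicate 2 stood far below the others, replicates 1, 4 and 5 lay below every RG2833 animal, and untreated replicate 3 lay inside the RG2833 range. The mean was 1.03 ± 0.40 in untreated and 1.31 ± 0.13 in RG2833 animals (SD, n = 5), and the difference of 0.28 did not pass (two-sided exact permutation test, p = 0.119). Without untreated replicate 2 the difference was 0.11 (exact permutation p = 0.206). Without untreated replicate 3, the highest of its group, it was 0.37 with an exact permutation p of 0.00794.

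Among the response genes, Klf9 encodes a zinc finger transcription factor that glucocorticoids and thyroid hormone induce in neurons and glia. It was at 90.8, 71.4, 85.1, 137 and 93.0 CPM in untreated replicates 1 to 5, and at 133, 160, 145, 122 and 175 CPM in RG2833 replicates 1 to 5. Of the untreated animals, 4 lay below every RG2833 animal, and only replicate 4 reached into their range, above 2 of them. The means were 95.6 ± 24.9 and 147 ± 20.8 CPM (SD, n = 5), or 0.62 ± 0.16 (SE) in log2 fold change (edgeR adjusted p = 0.0412). The call depended on which animals were included. It was kept in 1 of 10 fits that left out 1 animal, the fit without untreated replicate 4 (0.79 on the log2 scale, edgeR adjusted p = 0.00175). In that fit 13.1% of all tested genes passed. Leaving out any other animal gave log2 fold changes from 0.53 to 0.67 with adjusted p-values up to 0.112, the highest without RG2833 replicate 5. The unadjusted edgeR p-values of these fits were 0.00136 to 0.00531. Calls over all tested genes moved as well, from 599 with all animals to 98 without RG2833 replicate 5 and 902 without untreated replicate 5.

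Errfi1 encodes an inhibitor of the epidermal growth factor receptor family and is known to be induced by glucocorticoids and by growth factors. Its level was 46.0, 30.2, 44.8, 50.5 and 37.9 CPM in untreated replicates 1 to 5 and 55.7, 60.7, 50.02, 50.6 and 63.0 CPM in RG2833 replicates 1 to 5. The groups overlapped by a single pair of animals, untreated replicate 4 and RG2833 replicate 3. With means of 41.9 ± 7.96 and 56.0 ± 5.84 CPM (SD, n = 5), its change of 0.42 ± 0.13 (SE) on the log2 scale missed the threshold (edgeR adjusted p = 0.0732). It passed without untreated replicate 4 (0.50 on the log2 scale, edgeR adjusted p = 0.0226) and with DESeq2's Wald test on all animals (adjusted p = 0.0313), a test that called 10.9% of all tested genes.

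Fkbp5 encodes an Hsp90 cochaperone that lowers the hormone affinity of the glucocorticoid receptor, and its induction closes a short feedback loop. It was at 96.2, 81.5, 107, 113 and 89.8 CPM in untreated replicates 1 to 5, and at 105, 114, 110, 97.3 and 133 CPM in RG2833 replicates 1 to 5. RG2833 replicates 2 and 5 lay above the untreated range and the other 3 inside it. The means of 97.4 ± 12.6 and 112 ± 13.2 CPM (SD, n = 5) differed by 0.20 ± 0.10 (SE) on the log2 scale (edgeR adjusted p = 0.258), and no fit that left out 1 animal brought it past the threshold.

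Upstream sequence was looked at for these 3 genes because their levels had positive correlations across animals, given below, of which none passed the adjusted threshold. The 250 bases before the annotated start site are shown 5′ to 3′ on the strand of the gene, from RefSeq on build GRCr8. They lie at chr1:230126396-230126645 (plus strand) for Klf9, chr5:166606591-166606840 (plus strand) for Errfi1 and chr20:6543556-6543805 (minus strand) for Fkbp5. Capitals mark the letters TGACGT on either strand, a half-site of the cyclic AMP response element.
Klf9: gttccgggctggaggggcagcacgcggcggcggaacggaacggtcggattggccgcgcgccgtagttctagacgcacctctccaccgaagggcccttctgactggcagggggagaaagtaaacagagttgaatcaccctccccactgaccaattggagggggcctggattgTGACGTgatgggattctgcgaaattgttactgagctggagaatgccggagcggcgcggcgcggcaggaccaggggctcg
Errfi1: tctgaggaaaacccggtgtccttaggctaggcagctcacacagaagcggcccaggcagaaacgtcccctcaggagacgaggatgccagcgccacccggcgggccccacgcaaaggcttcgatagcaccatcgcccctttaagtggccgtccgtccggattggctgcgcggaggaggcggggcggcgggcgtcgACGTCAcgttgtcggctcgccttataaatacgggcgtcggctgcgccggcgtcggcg
Fkbp5: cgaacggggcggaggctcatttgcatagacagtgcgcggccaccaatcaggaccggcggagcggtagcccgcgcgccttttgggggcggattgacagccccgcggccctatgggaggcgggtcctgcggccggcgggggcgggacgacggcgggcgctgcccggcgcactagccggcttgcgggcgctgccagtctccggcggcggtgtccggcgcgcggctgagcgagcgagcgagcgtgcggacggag
The letters TGACGT lie 79 to 74 bases before the start site of Klf9, and their reverse complement lies 57 to 52 bases before that of Errfi1. Such a match occurs in 6.95% of the 33469 promoter windows of the same length in the table, and it was absent from the Fkbp5 window. The full element of 8 letters (the half-site followed by CA) occurs in 1.59% of all windows. The table held 11 windows for 6 of the 8 genes (Nr3c1, Fkbp5, Sgk1, Tsc22d3, Klf9 and Errfi1). None of the 11 held that full element. None held the core of a glucocorticoid response element (GNACA and TGTNC with 3 bases between them), which occurs in 0.373% of all windows, or its half-site AGAACA on either strand, which occurs in 17.5%. A match, or none, describes only the letters of these windows.

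Tsc22d3, which encodes the anti-inflammatory glucocorticoid-induced leucine zipper (GILZ), had a lower mean in RG2833 animals. It was at 96.0, 84.3, 85.7, 69.4 and 82.1 CPM in untreated replicates 1 to 5, and at 67.5, 82.6, 53.2, 73.9 and 57.0 CPM in RG2833 replicates 1 to 5. RG2833 replicates 1, 3 and 5 lay below every untreated animal, and all 5 lay below the untreated mean. The means were 83.5 ± 9.50 and 66.8 ± 12.04 CPM (SD, n = 5), and the change of -0.32 ± 0.12 (SE) on the log2 scale did not pass (edgeR adjusted p = 0.130). The value stayed between -0.41 and -0.25 in the 10 fits that left out 1 animal, and none of them passed (smallest adjusted p = 0.0562, without untreated replicate 4).

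Sgk1, the serum- and glucocorticoid-regulated kinase gene, was at 224, 99.5, 135, 193 and 123 CPM in untreated replicates 1 to 5, and at 163, 152, 126, 201 and 122 CPM in RG2833 replicates 1 to 5. The whole RG2833 range lay inside the untreated range. The means were 155 ± 51.7 and 153 ± 31.9 CPM (SD, n = 5), or -0.02 ± 0.21 (SE) in log2 fold change (edgeR adjusted p = 0.964). The sign of this value turned under several other fits, for example to 0.02 with limma-voom. The highest Sgk1 value was that of untreated replicate 1, the library with choroid plexus markers, which also had the highest summed level of 5 oligodendrocyte markers (Mbp, Mog, Mag, Mobp and Cnp, none at 0) at 15054 CPM, against 4399 to 10345 CPM in the other animals. Without that animal the Sgk1 log2 fold change was 0.15 (edgeR adjusted p = 0.677). The relation of Sgk1 to the oligodendrocyte markers is given below, and the part of choroid plexus in the Sgk1 level was not tested.

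Zbtb16, which encodes the transcriptional repressor PLZF and responds strongly to glucocorticoids in many cell types, had the lowest mean count of the 8. It was at 28.3, 26.8, 34.6, 32.3 and 50.6 CPM in untreated replicates 1 to 5, and at 30.6, 38.7, 34.9, 37.2 and 44.5 CPM in RG2833 replicates 1 to 5. All RG2833 animals lay within the untreated range, which was set at its upper end by replicate 5. The means were 34.5 ± 9.51 and 37.2 ± 5.09 CPM (SD, n = 5), or 0.11 ± 0.16 (SE) in log2 fold change (edgeR adjusted p = 0.715). Without untreated replicate 5 it was 0.29 (edgeR adjusted p = 0.137).

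**Figure D2:**
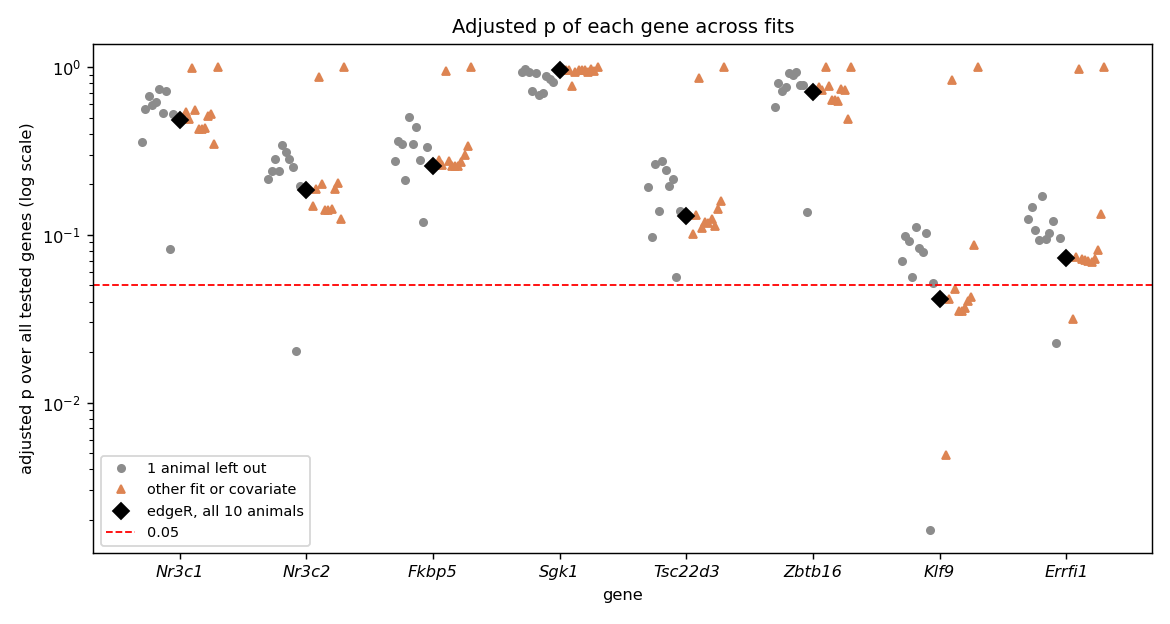
Adjusted p-value of each gene (log scale) in the edgeR fit with all 10 animals (black), in 10 fits that each left out 1 animal (grey) and in other fits or with covariates (orange); the dashed line marks 0.05. Klf9 is below the line with all animals and above it in 9 of the 10 grey points, and the lowest grey points of Klf9, Errfi1 and Nr3c2 come from the fit without untreated replicate 4.

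The values of Klf9, Errfi1 and Nr3c2 were smaller in fits that included properties of the libraries. With the excitatory neuron marker score (mean log2 CPM of the 3 markers) as a covariate, chosen after seeing the data, the log2 fold change of Klf9 was 0.17 (edgeR adjusted p = 0.834), that of Errfi1 0.025 and that of Nr3c2 -0.15. With the ribosomal RNA share (log2) in its place they were 0.15, 0.22 and -0.16, and 2 genes were called in the whole table. The log2 fold change of Tsc22d3 was -0.0041 with the ribosomal RNA share and -0.20 with the score. That of Sgk1 was farther from 0 with either, at -0.50 and -0.45 (edgeR adjusted p = 0.999922 and 0.770). Both covariates differed between the groups, the score by 0.64 (two-sided exact permutation test, p = 0.0159) and the log2 share by -1.26 (p = 0.00794, the smallest that 5 against 5 animals can give in this exact permutation test). Treatment and ribosomal RNA share cannot be told apart here, since the groups did not overlap in that share.

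Whether the genes varied together from animal to animal was asked after the group means had been removed, so that the mean difference between groups could not produce a correlation. Differences between animals within a group remain in these values, also any in their response to RG2833, and their causes were not tested. Fkbp5, Errfi1, Klf9 and Nr3c2 tended to be high or low in the same animals, without passing the test. Of the 28 pairs, 0 passed an adjusted p under 0.05 by Pearson's r or by Spearman's rho. At an unadjusted p under 0.05 there were 5 pairs by Pearson's r and 4 by Spearman's rho (two-sided exact permutation within groups). The share among pairs of all tested genes was not computed, so whether this covariation is particular to these genes was not tested. Each group alone holds 5 animals, and no correlation was computed within a group.

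**Figure D3:**
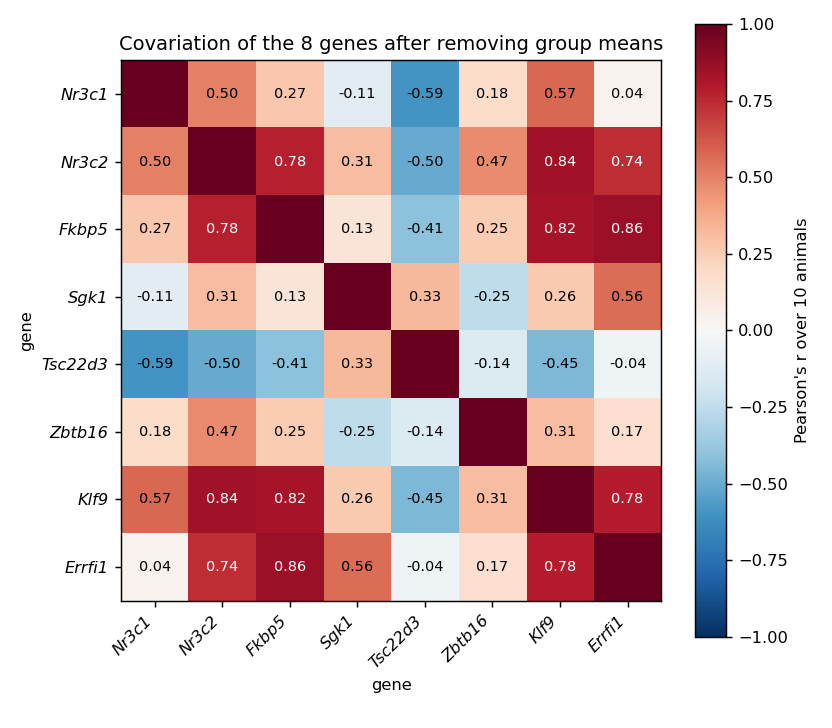
Pearson's r between the group-centred log2 CPM of each pair of genes over 10 animals (colour scale from -1 to 1, values printed in the cells). The 6 pairs among Nr3c2, Fkbp5, Klf9 and Errfi1 lie between 0.742 and 0.857, and Tsc22d3 is negative with every gene except Sgk1.

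Fkbp5 and Errfi1 were the closest pair, with r = 0.857 (exact permutation p = 0.00229, adjusted p = 0.0642) and rho = 0.867 (exact permutation p = 0.00368, adjusted p = 0.103). After the 2 animals farthest from the median of Fkbp5 were left out, r was 0.824. Leaving out single animals kept it between 0.810 and 0.895, so this relation did not rest on 1 animal. It passed the adjusted threshold in 2 of these 10 fits, without RG2833 replicate 1 and without RG2833 replicate 3.

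Fkbp5 and Klf9 gave r = 0.823 (exact permutation p = 0.00521, adjusted p = 0.0729) and rho = 0.721 (exact permutation p = 0.0346, adjusted p = 0.242), with r = 0.736 without the 2 farthest animals. For Nr3c2 and Fkbp5 r was 0.778 (exact permutation p = 0.00868, adjusted p = 0.0810) and rho 0.673 (p = 0.0591, adjusted p = 0.324), and r was 0.573 without the 2 farthest animals.
For the other 3 pairs of these 4 genes, the 2 animals left out were untreated replicates 2 and 4, as for Nr3c2 and Fkbp5, whereas RG2833 replicate 5 and untreated replicate 2 were left out for Fkbp5 with Errfi1 and with Klf9. Klf9 and Errfi1 had r = 0.785 (exact permutation p = 0.0280, adjusted p = 0.157) and rho = 0.721 (p = 0.0319, adjusted p = 0.242), with r = 0.505 after the 2 farthest were left out. Nr3c2 and Klf9 had r = 0.836 (exact permutation p = 0.0207, adjusted p = 0.145) and rho = 0.636 (p = 0.0810, adjusted p = 0.324), with r = 0.373 after the same step. Nr3c2 and Errfi1 had r = 0.742 (exact permutation p = 0.0636, adjusted p = 0.225) and rho = 0.503 (p = 0.193, adjusted p = 0.473), with r = 0.0067 after it. Untreated replicate 4, highest in its group for all 4 genes, and untreated replicate 2, lowest in its group for all 4, set much of these values. On the first principal component over all tested genes, replicates 4 and 2 also had the highest and lowest values of the untreated group (11.5 and -27.8).

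Nr3c1 and Tsc22d3 gave the most negative value, with r = -0.595 (exact permutation p = 0.0505, adjusted p = 0.225) and rho = -0.709 (p = 0.0240, adjusted p = 0.242), and r was -0.322 without the 2 animals farthest from the median of Nr3c1. Sgk1 was correlated with none of the other 7 genes at an unadjusted p under 0.05.

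**Figure D4:**
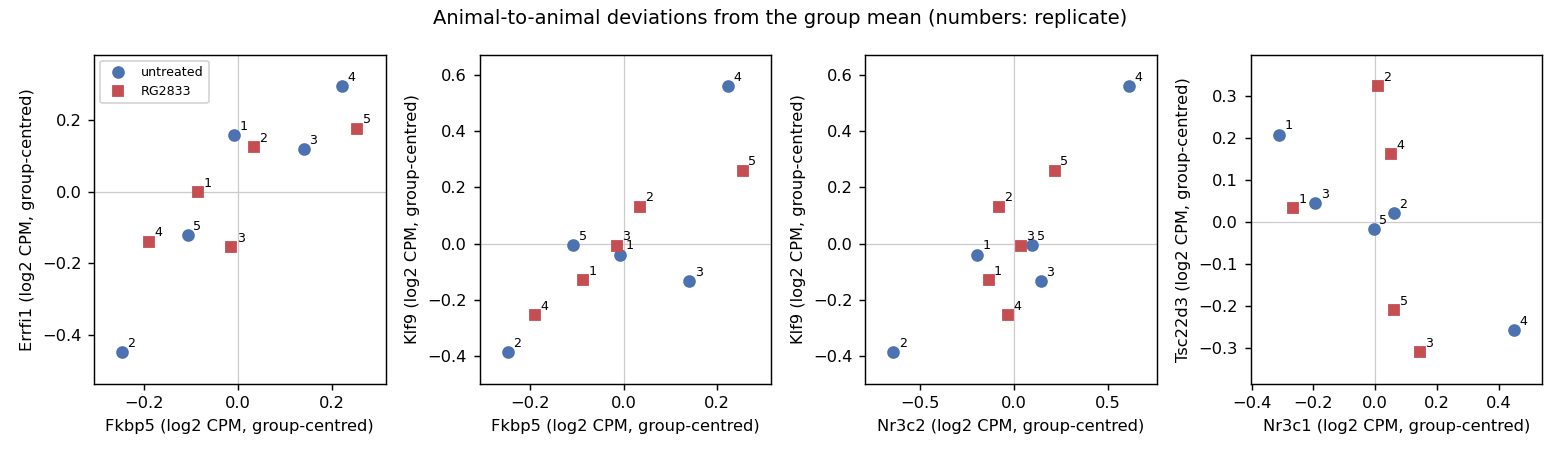
Deviation of each animal from its group mean (log2 CPM) for 4 pairs of genes; blue circles are untreated and red squares RG2833 animals, and digits are replicate numbers. Untreated replicates 2 and 4 lie on opposite sides in the first 3 panels, and the last panel shows Tsc22d3 low where Nr3c1 is high.

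Cell type markers were set beside the members in the same way, as 48 relations of the 8 genes with 5 marker scores and the log2 ribosomal RNA share, chosen after seeing the data. None passed an adjusted p under 0.05. Errfi1 followed the excitatory neuron score most closely, with r = 0.890 (exact permutation p = 0.00167, adjusted p = 0.080) and rho = 0.855 (p = 0.00701, adjusted p = 0.337), and r was 0.757 without the 2 animals farthest from the median of the score. For Fkbp5 r was 0.745 (exact permutation p = 0.00681, adjusted p = 0.163) and rho 0.733 (p = 0.0328, adjusted p = 0.788), with r = 0.588 after the same step. For Klf9 r was 0.835 (exact permutation p = 0.0310, adjusted p = 0.388) and rho 0.552 (p = 0.133, adjusted p = 0.841), and r was 0.380 without the 2 animals, so that value rests on them. For Nr3c2 r was 0.879 (exact permutation p = 0.0647, adjusted p = 0.621) and rho 0.321 (p = 0.443, adjusted p = 0.950), and r was -0.17 without the 2 animals, so it rests on them too. Sgk1 followed the oligodendrocyte score with r = 0.792 (exact permutation p = 0.0323, adjusted p = 0.388) and rho = 0.661 (p = 0.0983, adjusted p = 0.841), and with r = 0.530 after leaving out the 2 animals farthest from the median of that score.

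The genes most alike to each member were listed by Pearson's r of group-centred log2 CPM over the 10 animals, among 9209 genes with a mean log2 CPM of at least 3, as a description without a test. Closest to Klf9 were Gpr155 (r = 0.972), Usp31 (0.966) and LOC499339 (0.953). Closest to Nr3c2 were Nckap1 (0.977), Camk1d (0.977) and Plekhg1 (0.974), and to Nr3c1 Zfp496 (0.991), LOC100125362 (0.953) and Tmcc3 (0.953). Errfi1 was followed most closely by Nxpe3 (0.954), Cabp7 (0.937) and Arhgef3 (0.933), and Fkbp5 by Ppp1r7 (0.957), Ptplad1 (0.910) and Rap2b (0.905). For Sgk1 they were Gnpat (0.939), Tmem151a (0.934) and Gadd45b (0.932), for Tsc22d3 Peo1 (0.908), Txndc15 (0.906) and Zcrb1 (0.898), and for Zbtb16 Mgea5 (0.957), Usp32 (0.954) and Eea1 (0.954). None of the 8 genes was among the 3 closest of another. Of these 24 genes Ppp1r7 was called (log2 fold change 0.32, edgeR adjusted p = 0.0331), where 5.08% of all tested genes were. The mean of the 6 response genes was most like Hltf (0.941) and Tmem97 (0.935), followed by Uso1, B3galt5, Alg14, Ubl3, Nfic, Esrra, Nrip3 and Dnajb1 (0.894 to 0.909). Of these 10 genes Nfic was called (log2 fold change 0.58, edgeR adjusted p = 0.0138).

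Other genes of the pathway were counted by role. In a list of 29 further glucocorticoid response genes, 25 were tested and 0 passed at an adjusted p under 0.05 in the edgeR test. At an unadjusted p under 0.05, 7 passed (24.5% of all tested genes did), and DESeq2's Wald test called 2, Cebpd and Mt1a (10.9% of all tested genes). These shares are near those of all genes. Their median log2 fold change was 0.12, and 18 of the 25 were above 0, where 49.4% of all tested genes were. Cebpd, a transcription factor gene of the acute phase response, came closest, from 22.0 ± 9.13 to 37.9 ± 4.98 CPM (SD, n = 5), or 0.78 ± 0.22 (SE) on the log2 scale (edgeR adjusted p = 0.0587). As for Klf9, 4 of the untreated animals lay below every RG2833 animal and replicate 4, at 37.0 CPM, inside their range.

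Per1, a clock gene with a glucocorticoid response element, differed by 0.27 ± 0.09 (SE) in log2 fold change (edgeR adjusted p = 0.0964). The metallothionein genes Mt1a and Mt2A, which glucocorticoids and zinc induce, had -0.61 ± 0.20 and -0.44 ± 0.25 (SE; edgeR adjusted p = 0.0905 and 0.288). Ddit4, Fam107a and Dusp1, all known as glucocorticoid-induced in the hippocampus or in other tissues, had 0.01, 0.04 and 0.11, each smaller than its SE. Without untreated replicate 4, 4 genes of the list passed (Bcl6, Cebpb, Cebpd and Per1, all higher), and without untreated replicate 5, Mt1a and Mt2A passed, both lower. Of all tested genes, 13.1% and 7.61% passed in these 2 fits.

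Of the coregulators reported here, 6 were tested and 0 were called in the edgeR test or with DESeq2, and 3 had an unadjusted p under 0.05, as did 24.5% of all tested genes. All 6 had log2 fold changes above 0, with a median of 0.29. For Med1, Ncoa2, Nrip1, Ncor1, Smarca4 and Ncoa1 the log2 fold changes were between 0.19 and 0.38 and were not called (edgeR adjusted p of 0.102 or more). Without untreated replicate 4, Ncor1, Nrip1 and Smarca4 passed, in the fit where 13.1% of all tested genes did.

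The chaperone complex that holds the receptor showed small differences. All 10 listed genes were tested, 0 were called in the edgeR test or with DESeq2, 2 had an unadjusted p under 0.05 (24.5% of all tested genes), and the log2 fold changes ran from -0.23 (Bag1) to 0.16 (Fkbp4). Hsp90ab1 and Hsp90aa1, the constitutive and inducible Hsp90 genes, had 0.08 ± 0.08 and -0.13 ± 0.11 (SE; edgeR adjusted p = 0.583 and 0.512). Fkbp4, the cochaperone that takes the place of Fkbp5 when hormone binds, had 0.16 ± 0.07 (SE; edgeR adjusted p = 0.175).

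Hormone supply was represented by 5 genes, of which 4 were tested and 0 were called in the edgeR test, 2 of them with an unadjusted p under 0.05 (24.5% of all tested genes) and 1, Hsd11b1, called by DESeq2 (10.9%). Hsd11b1 regenerates active corticosterone inside cells, and its means were 82.2 ± 14.2 CPM without and 61.8 ± 8.19 CPM with RG2833 (SD, n = 5), or -0.41 ± 0.12 (SE) on the log2 scale (edgeR adjusted p = 0.0694). Its groups overlapped through RG2833 replicate 4, and it passed without untreated replicate 4 (-0.47, edgeR adjusted p = 0.0254). Abcb1a, an efflux pump of the blood-brain barrier that carries some glucocorticoids, had -0.31 ± 0.11 (SE, edgeR adjusted p = 0.101) and passed without untreated replicate 5 (-0.37, adjusted p = 0.0480). Beside it, the summed level of 4 endothelial markers (Cldn5, Pecam1, Flt1 and Vwf, none at 0) spanned 197 to 297 CPM without and 186 to 211 CPM with RG2833, and its part in the Abcb1a value was not tested. Hsd11b2, which inactivates corticosterone, did not reach the filter on low counts.

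The remaining lists had 0 called genes in the edgeR test. Of the related steroid receptor genes reported here, Pgr differed by 0.42 on the log2 scale (edgeR adjusted p = 0.162, unadjusted p = 0.0318), and Esr1 and Esr2 were below the filter. In the corticotropin-releasing hormone system, Crhr1 had -0.88 ± 0.34 (SE; edgeR adjusted p = 0.135), at levels of at most 5.29 CPM in any animal, and 2 of 4 tested genes had an unadjusted p under 0.05 (24.5% of all tested genes did). Crhr2 was at 5.15, 3.60, 1.48, 0.372 and 2.86 CPM in untreated replicates 1 to 5, and at 0.286, 0.178, 1.76, 0.310 and 0 CPM in RG2833 replicates 1 to 5 (edgeR adjusted p = 0.0809). In 4 of the 5 RG2833 animals this is 3 counts or fewer, so its fitted fold change depends on the prior count and is not given. Crhr2 was highest in untreated replicate 1, the library with choroid plexus markers. Among genes that glucocorticoids repress, 3 of 7 were tested and Ptgs2, the inducible cyclooxygenase gene, had 0.82 ± 0.28 (SE; edgeR adjusted p = 0.0964), with Pomc and Icam1 at 0.01 and 0.17. DESeq2's Wald test called Crhr2 and Ptgs2, and without untreated replicate 4 Crhr1, Crhr2 and Ptgs2 passed in the edgeR test. Of all tested genes, 10.9% were called with DESeq2 and 13.1% without untreated replicate 4.

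**Figure D5:**
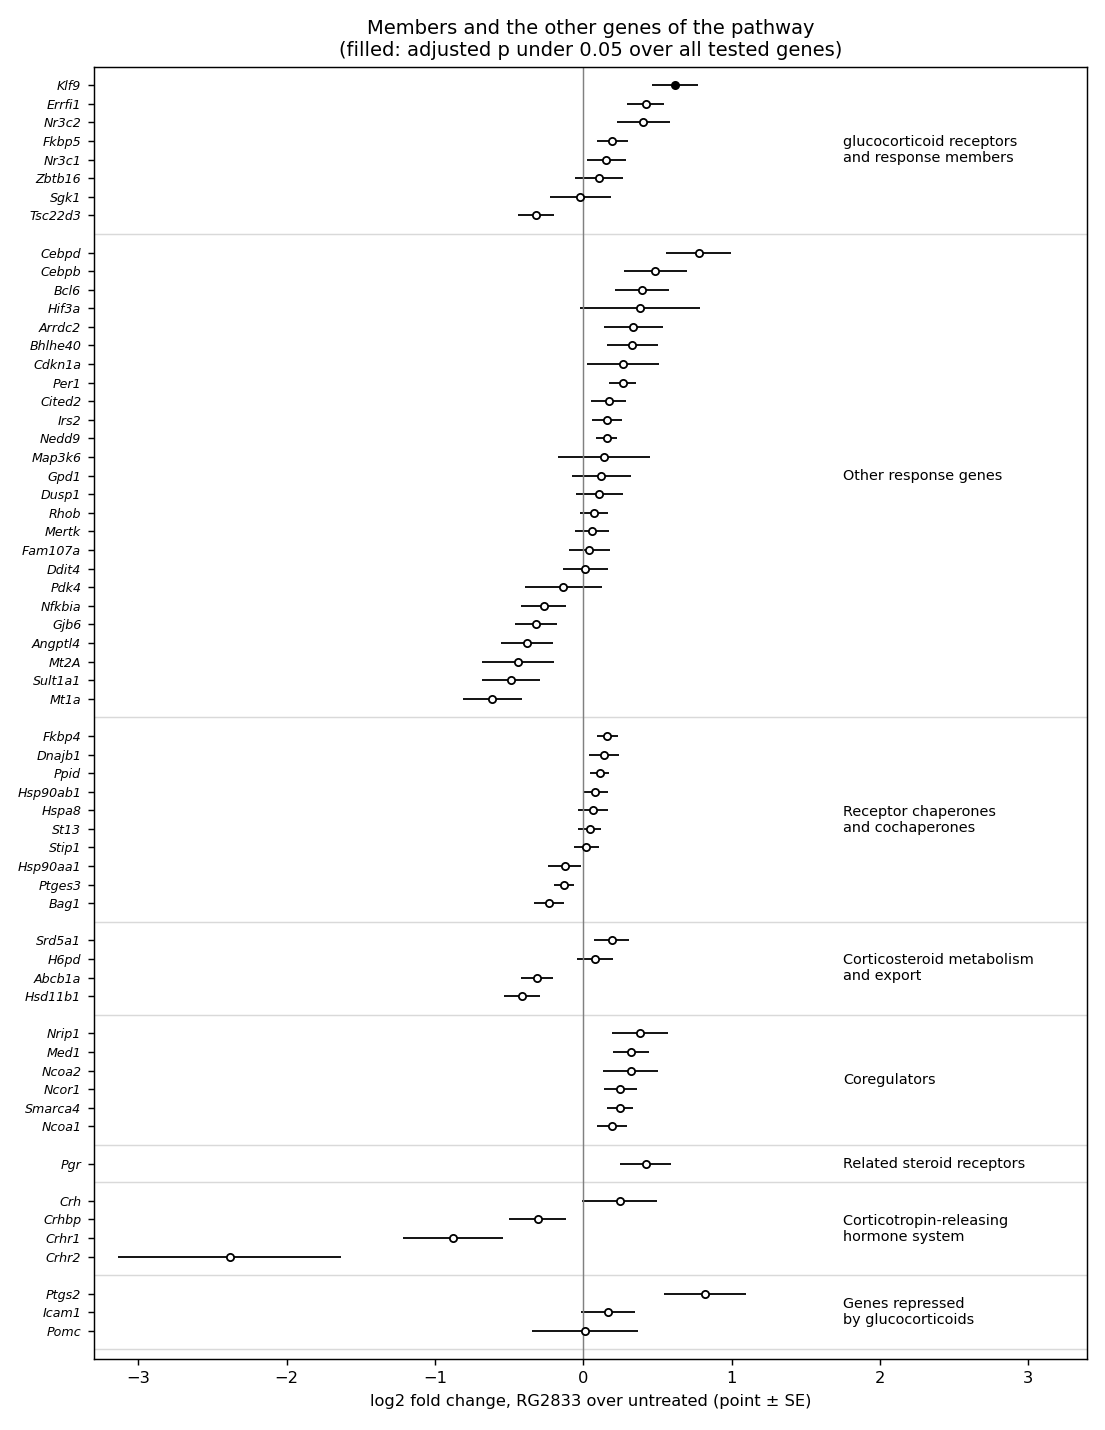
Log2 fold change of RG2833 over untreated animals (horizontal axis, point ± SE, n = 5 per group) for the 8 genes and the tested genes of 7 pathway lists that are reported here; filled points passed an adjusted p under 0.05. The fitted value of Crhr2 rests on 3 counts or fewer in 4 RG2833 animals. Klf9 is the filled point, and the 6 coregulators shown lie right of 0.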

How the data were processed

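Strand-specific mRNA libraries were made from the left hippocampus of 10 animals, per the labels' protocols. The authors deposited estimated counts by RSEM and a TMM-scaled CPM signal for the same gene symbols, with 1 column per animal. The submitters' processing notes list bcl2fastq 2.17, Bowtie2 2.1.0, RSEM 1.2.15, edgeR and build rn6, with no role or order, and the annotation is not given in the sources used here. Reads shared between similar genes may have been split by the estimation, and strand use in counting is not stated.

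Columns were matched to animals by title. Expected counts were rounded, genes were filtered with edgeR's filterByExpr by group, and edgeR 4.0.16 (R 4.3.3) quasi-likelihood tests with TMM scaling used all 10 animals without covariates. The Benjamini-Hochberg adjustment covered all tested genes. The SE was taken as |log2 fold change| over the root of F. Log2 CPM used a prior count of 2. Exact permutation tests were two-sided, and correlations used group-centred values exchanged within groups. The labels say only that the samples are separate animals, so p-values measure the spread between them, and the precision is limited by that spread and by counting error. A count of 3, taken as the floor, is 0.268 to 0.343 CPM.

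Within groups, chi-square per degree of freedom between libraries was 4.73 to 38.1 over 20 pairs, so each library counts as 1 animal. It was 17.0 to 38.1 in untreated and 4.73 to 10.5 in RG2833 animals, so the untreated libraries differed more among themselves. In simulated data for this comparison (11718 genes tested), 39 of 99 changes of 0.5 log2 units and 79 of 99 of 1 were called, with 9 false calls. The simulation drew genes independently, with the same dispersion in both groups and no difference shared by many genes of a library. The real libraries differ in these respects, so these rates cannot be carried over to them. The members and lists were chosen with earlier results of these data known. Named were the 8 members, any gene of the 7 pathway lists and the cell type marker lists, every called gene of the pathway lists, and the genes most alike by correlation. Alternatives were other scalings, filters, DESeq2 1.42.0, limma 3.58.1 (voom, and trend on the deposited signal), a replicate block, the ribosomal RNA share and the excitatory neuron score as covariates (the last added after seeing the data), and leaving out each animal. Listed genes that were not in the table by the names used (Plin4, Mt1, Tiparp, Ncoa3, Slco1a4 and Hba-a2) were not analysed here. Some other genes of these lists are not reported here, and the counts, sums and scores of the lists leave them out. Promoter windows are those of RefSeq on GRCr8.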

Additional observations from a re-analysis of the deposited data

Results flagged for a closer look

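The log2 ratio of Nr3c2 to Nr3c1 was 0.33 in untreated replicate 2, against 1.13 to 1.37 in the other untreated animals. The gap to its nearest neighbour was 0.770 of the range of the group, above the limit of Dixon's test for 5 samples (0.71). It was the only outlying value among 22 groups of 5 values tested (the 8 genes, the ratio, the ribosomal RNA share and the total count, each in both groups), where chance gives about 1.1. The same animal had the lowest Nr3c2 level (93.6 CPM) and the highest ribosomal RNA share (5.36%) of all 10 animals. Over all 10 animals, group-centred log2 CPM of Nr3c2 and the log2 share gave r = -0.563 (exact permutation p = 0.178, adjusted p = 0.867) and rho = -0.442 (p = 0.306, adjusted p = 0.950), with r = -0.495 without the 2 farthest animals; the ratio itself was not set against the share.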

How the results depend on the processing

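The count of 599 called genes was 1286 with DESeq2's Wald test, 1466 at an adjusted p under 0.1, 180 with the replicate block, 5 after adding the excitatory neuron score and 2 after adding the ribosomal RNA share to the model, and 98 to 1556 over the fits without 1 animal. Other scalings, filters and limma gave 470 to 629 calls. Scaling by library totals alone put 38.3% of calls on the higher side, against 47.4% with TMM scaling.

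Klf9 kept its direction in every fit run and lost its call with the replicate block (0.65, adjusted p = 0.0866), the ribosomal RNA share (0.15), the excitatory neuron score (0.17) and 9 of the 10 fits without 1 animal (log2 fold changes of all 10 from 0.53 to 0.79). Errfi1 passed with DESeq2 (0.42), and over the fits without 1 animal it ran from 0.32 to 0.50 and Nr3c2 from 0.27 to 0.58. Signs turned for Nr3c1 (-0.16), Nr3c2 (-0.16) and Zbtb16 (-0.17) with the ribosomal RNA share, and for Nr3c2 (-0.15) and Fkbp5 (-0.063) with the excitatory neuron score. Sgk1 turned to 0.020 with limma-voom, limma trend at both pseudocounts (0.018 and 0.019) and the replicate block (0.019), ran from -0.14 to 0.15 without 1 animal, and was -0.50 with the ribosomal RNA share and -0.45 with the excitatory neuron score. Tsc22d3 was -0.0041 and -0.20 with these covariates. The cause of these changes was not tested.

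Called genes among the further response genes numbered 2 with DESeq2, 1 with limma-voom, 1 and 1 with limma trend at both pseudocounts, 3 at an adjusted p under 0.1 and 0 to 4 without 1 animal. Coregulators had 0 to 3 without 1 animal. Hormone metabolism, the corticotropin-releasing hormone system and repressed genes had 1 each with DESeq2, 1 each at an adjusted p under 0.1, and 0 to 1, 0 to 2 and 0 to 1 without 1 animal. Of all 11791 tested genes, 1286 (10.9%) were called with DESeq2 and 1466 at an adjusted p under 0.1. Limma-voom called 549 of them, and limma trend 609 and 576 at pseudocounts of 1 and 0.1. The fits without 1 animal called 98 to 1556 genes.

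The receptor ratio difference ran from 0.11 to 0.37 without 1 animal and was 0.28 with the replicate block (exact permutation p = 0.188, where 5 pairs allow at least 0.0625). Pairs of genes past the adjusted threshold numbered 0 to 2 without 1 animal (Fkbp5 with Errfi1 or Klf9, and Nr3c1 with Tsc22d3) and 0 with the replicate block. Between same-numbered animals, deviations from the group means correlated at -0.066 on average, with values from -0.32 to 0.15. No other matching of the animals was compared, so this cannot decide whether the numbers pair them. At counts of 247 or more per library, the spread between animals limits these values more than depth.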

Other observations

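Of 49 cell type markers tested, 1 was called in the edgeR test, where 5.08% of all tested genes were, so the markers' share is below that of all genes. It was Aif1, a microglial calcium-binding protein gene, which fell from 36.2 ± 12.4 to 21.7 ± 0.986 CPM (SD, n = 5; adjusted p = 0.0496), while the summed level of 6 microglial markers was 245 to 356 CPM in untreated and 224 to 294 CPM in RG2833 animals. Summed astrocyte markers spanned 2529 to 4275 and 3089 to 4088 CPM, and inhibitory neuron markers 411 to 766 and 428 to 581 CPM. Oligodendrocyte precursor markers spanned 93.0 to 130.4 and 78.7 to 105 CPM, and pericyte markers 73.9 to 96.7 and 70.7 to 90.6 CPM. Among subfield markers, those of dentate granule cells spanned 105 to 358 and 206 to 301 CPM, of CA1 293 to 1125 and 338 to 1249.9 CPM, of CA2 265 to 385 and 339 to 421 CPM, and of CA3 64.9 to 135 and 104 to 151 CPM. Ependymal markers reached 18.3 and 13.4 CPM at most, and blood markers 20.8 and 19.8 CPM.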
